A study of Homo sapiens with 9 samples.

Results

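The 9 genes described here are antioxidant and iron-handling targets of the transcription factor NRF2: GCLM, GCLC, SLC7A11, TXNRD1, SRXN1, NQO1, HMOX1, FTL and OSGIN1. They were chosen by name, with earlier results of these data known. Every probe that the array's annotation assigns to one of them was kept, whatever its values. This gave 10 probes among the 42405 non-control probes of the array, with 2 probes for FTL and 1 for each other gene. All 10 were well above background on all 9 arrays and none was saturated, so all entered the tests, which covered 29134 probes. NT2, a line of human embryonal carcinoma cells that can be driven towards neurons with retinoic acid, was grown in retinoic acid differentiation medium for 4 days (96 h). Control cultures received no compound, and the others received 1 µM paraoxon or 5 µM mipafox in that medium from the start of differentiation. Both compounds are organophosphorus esterase inhibitors. Paraoxon is known for blocking acetylcholinesterase, and mipafox for inhibiting neuropathy target esterase as well. Total RNA of 3 samples per treatment, lettered A, B and C, was hybridized to one-colour Agilent arrays. The paper describes the replicates as technical and the deposited design describes them as biological, so the p-values measure the spread between these samples, which may be technical.

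NRF2, the product of NFE2L2, is kept low in unstressed cells by KEAP1, which hands it to a CUL3 ubiquitin ligase for degradation. Oxidants and electrophiles modify KEAP1, NRF2 accumulates, and with a small MAF protein it binds the antioxidant response element in its target genes, a site that the repressor BACH1 can also occupy. The targets rebuild glutathione, reduce thioredoxin and quinones, and break down heme and store its iron, and their transcripts are commonly read as a measure of the response to oxidative or electrophilic stress.

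The core of the antioxidant response element, TGACNNNGC, or GCNNNGTCA when read on the other strand, was searched in the 250 bases before the annotated start of each gene (RefSeq, GRCh38.p14). Of the 9 genes, 7 had a promoter sequence in the table used, and HMOX1 and SLC7A11 did not. The promoters of GCLM and TXNRD1 held the motif. It was also present in 3013 of 27305 promoters (11.0%), so a match of these letters is a description and not a mapped binding site. The windows of these genes are shown because they were the only ones with a match. They are written 5′ to 3′ on the gene's strand, with the motif in capitals:
GCLM, chr1:93909435-93909485, minus strand: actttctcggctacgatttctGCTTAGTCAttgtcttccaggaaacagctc
TXNRD1, chr12:104215659-104215709, plus strand: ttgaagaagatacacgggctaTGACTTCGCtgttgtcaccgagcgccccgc
The match began 34 bases before the start of GCLM, on the other strand, and 99 bases before that of TXNRD1, on the gene's own strand. No match was found in these 250 bases for GCLC, NQO1, SRXN1, OSGIN1 and FTL, and sequence farther upstream was not searched.

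Levels are given as normalized log2 signal, the log2 of the processed signal minus the 75th percentile of that array. They compare arrays for 1 probe and do not rank genes against each other. The 75th percentile of the processed signal ranged from 802 to 1590, and 65.7% to 73.6% of probes were well above background. Of the 2 slides, slide 1 carried every control array together with mipafox A, whereas slide 2 carried mipafox B and C and every paraoxon array. Paraoxon and control shared no slide and cannot be told apart from the slides without the mipafox arrays. Each of these NRF2 target genes is therefore also given with slide as a block in the fit and within slide 2. The slide-block value of mipafox equals the difference of mipafox A from the control mean on slide 1. Of the embryonal carcinoma markers, all 11 probes of 10 genes, POU5F1, SOX2 and LIN28A among them, were well above background on every array. The probes of GFAP and HBB were not well above background on any. One of the 5 probes of PTPRC, a blood cell gene, ranged from -6.22 to -5.75 in control and from -4.92 to -4.68 with paraoxon (adjusted p = 0.0763), and the other PTPRC probes were not tested. The part of other cells in the values below was not tested.

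With paraoxon, no probe of these genes passed the test, which asked for a log2 fold change beyond 1 in either direction at an adjusted p under 0.05 (limma, Benjamini-Hochberg over all tested probes; 0.00% of all tested probes passed). GCLM stood highest, at 1.96 times the control level, SLC7A11 at 1.28 times, and TXNRD1 lowest, at 0.629 times, and for each of them the paraoxon and control arrays did not overlap. At an unadjusted p under 0.05, GCLM and SLC7A11 were higher (2 of 10 probes, against 7.31% of all tested probes) and TXNRD1 was lower (1 of 10, against 6.02%). The arrays did not overlap in the higher direction for GCLM, SLC7A11 and NQO1 (3 of 10, against 12.4%) and in the lower direction for TXNRD1 (1 of 10, against 11.1%). The median log2 fold change of the 10 probes was 0.05, with 6 higher and 4 lower, beside a median of 0.01 over all tested probes, 51.9% of which were higher.

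With mipafox, no probe passed the same test (0.00% of all tested probes did). The log2 fold changes lay between -0.51 for TXNRD1 and 0.29 for GCLM. None of the 10 probes had an unadjusted p under 0.05 in the higher direction (2.96% of all tested probes) or in the lower direction (4.00%). None lay above every control array (5.32%), and NQO1 and the FTL probe A_23_P50504 lay below every control array (2 of 10, against 6.46%). The median log2 fold change was -0.05, with 3 probes higher and 7 lower, beside 0.00 over all probes. Both comparisons used the same control arrays, and the doses of the compounds differed, so their values are set side by side.

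**Figure D1:**
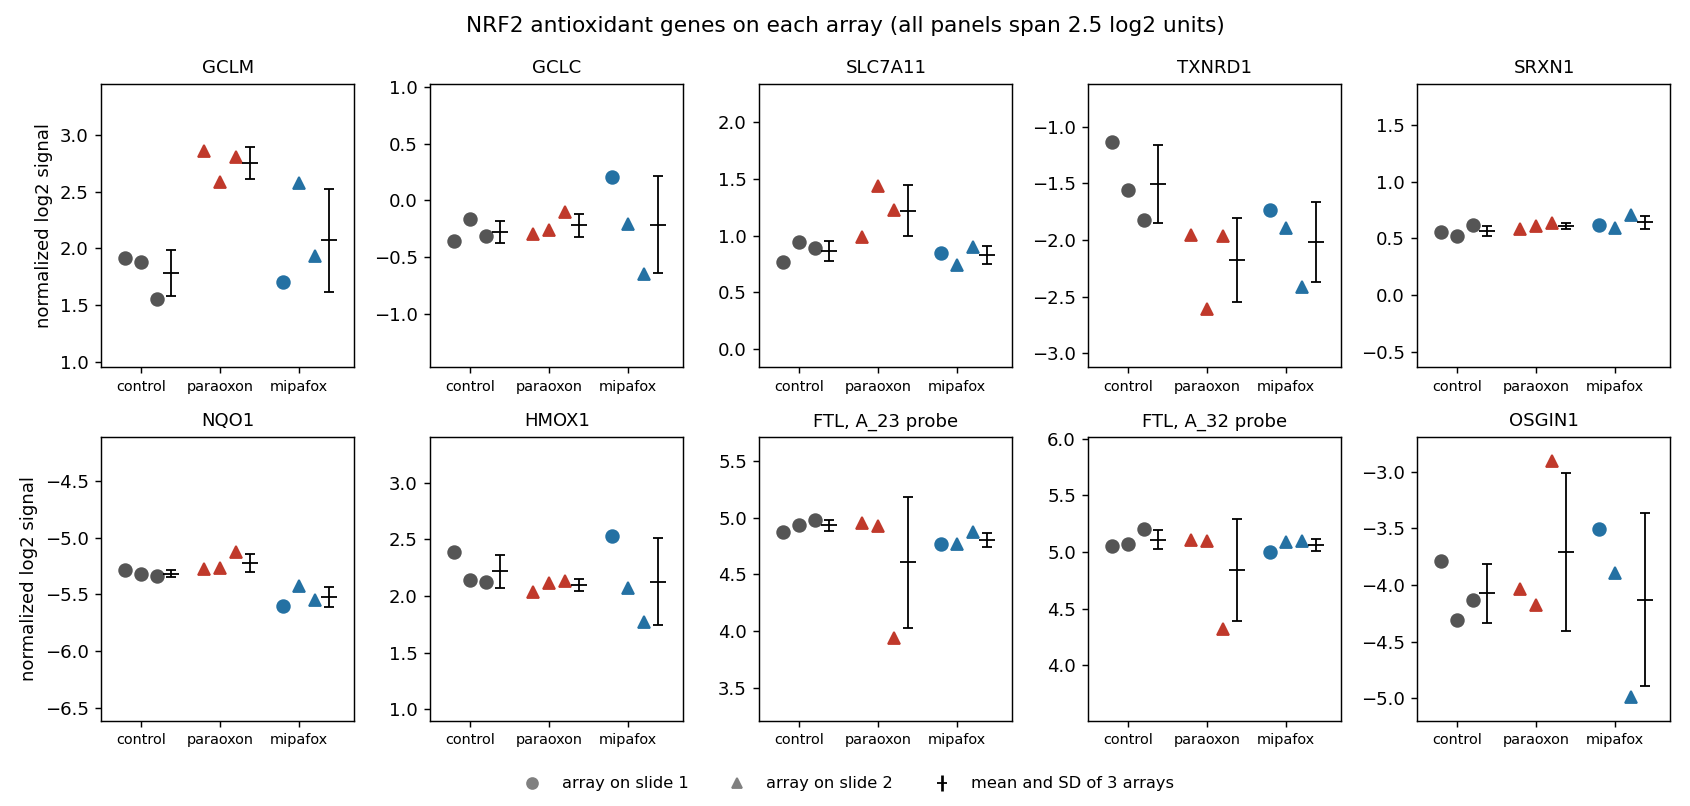
Normalized log2 signal of the 10 probes of the 9 NRF2 target genes on each array, by treatment; circles are arrays on slide 1, triangles arrays on slide 2, and the bars beside them the mean and SD of 3 arrays. The GCLM paraoxon arrays sit between 2.59 and 2.86, above the control arrays at 1.55 to 1.92, while paraoxon C stands low for both FTL probes and high for OSGIN1.

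Glutathione synthesis was represented by GCLM, GCLC and SLC7A11. GCLM encodes the modifier subunit of glutamate-cysteine ligase, the enzyme of the first and rate-limiting step (probe A_33_P3265606, hg19 chromosome 1, 94352810 to 94352869). In the order A, B, C, which is kept for every gene, the control arrays read 1.92, 1.88 and 1.55, the paraoxon arrays 2.86, 2.59 and 2.81, and the mipafox arrays 1.71, 2.58 and 1.93 (normalized log2 signal). All paraoxon arrays lay above all control arrays, and mipafox B lay just under the lowest paraoxon array while mipafox A lay among the controls. The log2 fold change with paraoxon was 0.97 (SE 0.23; 95% interval of the fold 1.38 to 2.80), with an unadjusted p of 0.00191, the rank 495 among the tested probes, and an adjusted p of 0.112 in limma. With mipafox it was 0.29 (SE 0.23, limma adjusted p = 0.877), and it was 0.48 without mipafox A and 0.04 without mipafox B.

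The GCLM values were also read by slide. On slide 1, mipafox A differed from the control mean by -0.07. On slide 2, paraoxon lay 0.50 above mipafox B and C on the log2 scale, and the arrays did not overlap (2.59 against 2.58 at the nearest). The mean of mipafox B and C on slide 2 lay 0.55 above mipafox A on slide 1. Mipafox B read 2.58 and mipafox C 1.93, the latter near the highest control array at 1.92. Mipafox A was the only mipafox array on slide 1, so slide and the spread between arrays cannot be told apart. With slide as a block the log2 fold change with paraoxon was 0.42 (SE 0.36, limma adjusted p = 0.715), and with mipafox it was -0.07. GCLM was also the only member that any setting tried here called: with weights estimated for each array the paraoxon value was 1.02 with a limma adjusted p of 0.00552. That fit called 1 of the 10 probes with paraoxon, against 2.3% of all tested probes. The mipafox value was then 0.65, with a limma adjusted p of 0.0303, under the fold change limit. Those weights ran from 0.285 for mipafox C to 4.37 for control B. When the fit held only the control and paraoxon arrays, the limma adjusted p was 0.0393 and the log2 fold change of 0.97 stayed under the limit of 1.

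GCLC encodes the catalytic subunit of the same enzyme (A_23_P145114, chromosome 6, 53362197 to 53362256). Its log2 signal was -0.36, -0.17 and -0.31 on the control arrays, -0.29, -0.26 and -0.10 with paraoxon and 0.21, -0.20 and -0.65 with mipafox. The paraoxon arrays overlapped the controls, and the mipafox arrays fell on both sides of them, with A highest and C lowest of all 9. GCLC had a log2 fold change of 0.06 with paraoxon (SE 0.21; 95% interval -0.40 to 0.52) and 0.06 with mipafox (limma adjusted p = 0.946 and 0.984). Within slide 2 paraoxon lay 0.21 above mipafox B and C, with the arrays overlapping. With slide as a block the values against control became 0.69 (SE 0.27, limma adjusted p = 0.613) and 0.49 (SE 0.21, limma adjusted p = 0.850). On slide 1, mipafox A lay 0.49 above the control mean.

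SLC7A11 encodes the cystine importer that supplies the cysteine for glutathione (A_33_P3242623, chromosome 4, 139085433 to 139085492). Its log2 signal was 0.77, 0.94 and 0.89 on the control arrays, 0.99, 1.44 and 1.23 with paraoxon, and 0.85, 0.74 and 0.90 with mipafox. All paraoxon arrays lay above all 6 others, and the mipafox arrays fell within or just under the control range. The log2 fold change was 0.35 with paraoxon (SE 0.15, 27.6% higher, limma adjusted p = 0.348) and -0.04 with mipafox (limma adjusted p = 0.988). The paraoxon value was 0.38 (SE 0.27) with slide as a block, and within slide 2 paraoxon lay 0.40 above mipafox B and C. With array weights it was 0.17 (SE 0.10, limma adjusted p = 0.322).

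Of the thioredoxin branch, TXNRD1 is the cytosolic reductase that keeps thioredoxin active (A_33_P3351120, chromosome 12, 104732949 to 104733008). Its log2 signal was -1.14, -1.55 and -1.83 on the control arrays, -1.96, -2.60 and -1.96 with paraoxon and -1.74, -1.89 and -2.41 with mipafox. All paraoxon arrays lay below all control arrays, and mipafox A lay within the control range while mipafox B and C lay under it. TXNRD1 had a log2 fold change of -0.67 with paraoxon (SE 0.26; 95% interval of the fold 0.418 to 0.946, limma adjusted p = 0.310) and -0.51 with mipafox (SE 0.26, limma adjusted p = 0.792). With paraoxon it lay in the direction opposite to GCLM. Within slide 2 paraoxon and mipafox B and C differed by -0.02, and on slide 1 the difference of mipafox A from the control mean was -0.23. With slide as a block the paraoxon value was -0.26 (SE 0.46, limma adjusted p = 0.862).

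SRXN1 encodes sulfiredoxin, which restores overoxidized peroxiredoxins (A_23_P320113, chromosome 20, 627563 to 627622). Its log2 signal was 0.55, 0.52 and 0.62 on the control arrays, 0.58, 0.61 and 0.63 with paraoxon and 0.62, 0.59 and 0.71 with mipafox. It had the narrowest range of the 10 probes over the 9 arrays. The log2 fold change was 0.05 with paraoxon (SE 0.12; 95% interval of the fold 0.859 to 1.24) and 0.08 with mipafox (interval 0.878 to 1.27), so a change to 1.5 times the control level lay outside both intervals. The slide-block values were 0.02 (SE 0.20) and 0.06 (SE 0.16), and within slide 2 paraoxon and mipafox B and C differed by -0.04.

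NQO1, the quinone reductase often used as a reporter of NRF2 activity, gave a dim signal in these cells (A_23_P206661, chromosome 16, 69744274 to 69744333; mean processed signal 28.1 on the linear scale). Its log2 signal was -5.28, -5.32 and -5.34 on the control arrays, -5.28, -5.27 and -5.13 with paraoxon and -5.60, -5.43 and -5.55 with mipafox. The paraoxon arrays lay above the controls, by 0.01 at the nearest, and the mipafox arrays lay below them. The log2 fold changes were 0.09 (SE 0.12, limma adjusted p = 0.822) and -0.21 (SE 0.12, limma adjusted p = 0.821). The 2 spots of the probe differed on paraoxon C by an SD of 0.54, which is larger than the differences between treatment means. Under normexp background correction the mipafox value was 0.06, of the opposite sign. In the slide-block fit the values were -0.02 (SE 0.21) with paraoxon and -0.28 (SE 0.16) with mipafox, and within slide 2 paraoxon lay 0.26 above mipafox B and C.

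Heme and iron handling was represented by HMOX1 and FTL. HMOX1 encodes heme oxygenase 1, which opens the heme ring and frees its iron (A_23_P120883, chromosome 22, 35790122 to 35790181). The probe has 10 spots on each array, and 4 spots in all were left out as outliers. The remaining spots of an array had a median SD of 0.04 on the log2 scale. The log2 signal was 2.38, 2.14 and 2.13 on the control arrays, 2.03, 2.11 and 2.14 with paraoxon and 2.53, 2.07 and 1.77 with mipafox. The paraoxon arrays lay close together and overlapped the controls, and the mipafox arrays again spanned the whole range, with A highest and C lowest. The log2 fold change was -0.12 with paraoxon (SE 0.19, limma adjusted p = 0.859) and -0.09 with mipafox (limma adjusted p = 0.972). With slide as a block both changed sign, to 0.49 (SE 0.25, limma adjusted p = 0.622) and 0.31 (SE 0.20, limma adjusted p = 0.850). Within slide 2 paraoxon lay 0.17 above mipafox B and C, with the arrays overlapping.

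FTL encodes the light chain of ferritin, the iron store, and was measured by 2 probes (A_23_P50504 and A_32_P155247, chromosome 19, 49468731 to 49468790 and 49469029 to 49469088). FTL has processed copies elsewhere in the genome, and whether these probes also detect them was not tested. The first probe read 4.88, 4.93 and 4.98 on the control arrays, 4.95, 4.93 and 3.94 with paraoxon and 4.77, 4.77 and 4.87 with mipafox, as log2 signal. The second read 5.05, 5.07 and 5.20, then 5.10, 5.10 and 4.32, then 5.00, 5.09 and 5.10. Both probes were low on paraoxon C and within the control range on paraoxon A and B. Paraoxon C also had the lowest share of probes well above background (65.7%) and a 75th percentile of 818, whose part in these values was not tested. Their log2 fold changes with paraoxon were -0.33 (SE 0.25, limma adjusted p = 0.644) and -0.27 (SE 0.21, limma adjusted p = 0.652), and without paraoxon C they were 0.01 and -0.01. With mipafox they were -0.13 and -0.05 (limma adjusted p = 0.971 and 0.989). The fit with the slide term gave -0.38 (SE 0.47) and -0.36 (SE 0.39) with paraoxon and -0.17 and -0.11 with mipafox. Within slide 2 paraoxon differed from mipafox B and C by -0.21 and -0.25.

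OSGIN1, a growth inhibitor induced by oxidative stress, was measured by 1 dim spot (A_23_P77415, chromosome 16, 83999149 to 83999208; mean processed signal 73.3). Its log2 signal was -3.79, -4.30 and -4.13 on the control arrays, -4.03, -4.18 and -2.91 with paraoxon and -3.51, -3.89 and -4.98 with mipafox. The groups overlapped, and this probe had the widest range of the 10. Its log2 fold change was 0.37 with paraoxon (SE 0.42, limma adjusted p = 0.787), and without paraoxon C it was -0.03. With mipafox it was -0.06 (limma adjusted p = 0.994). The slide term took the values to 1.30 (SE 0.71, limma adjusted p = 0.627) with paraoxon and 0.56 (SE 0.55, limma adjusted p = 0.877). Within slide 2 paraoxon lay 0.73 above mipafox B and C, with the arrays overlapping.

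**Figure D2:**
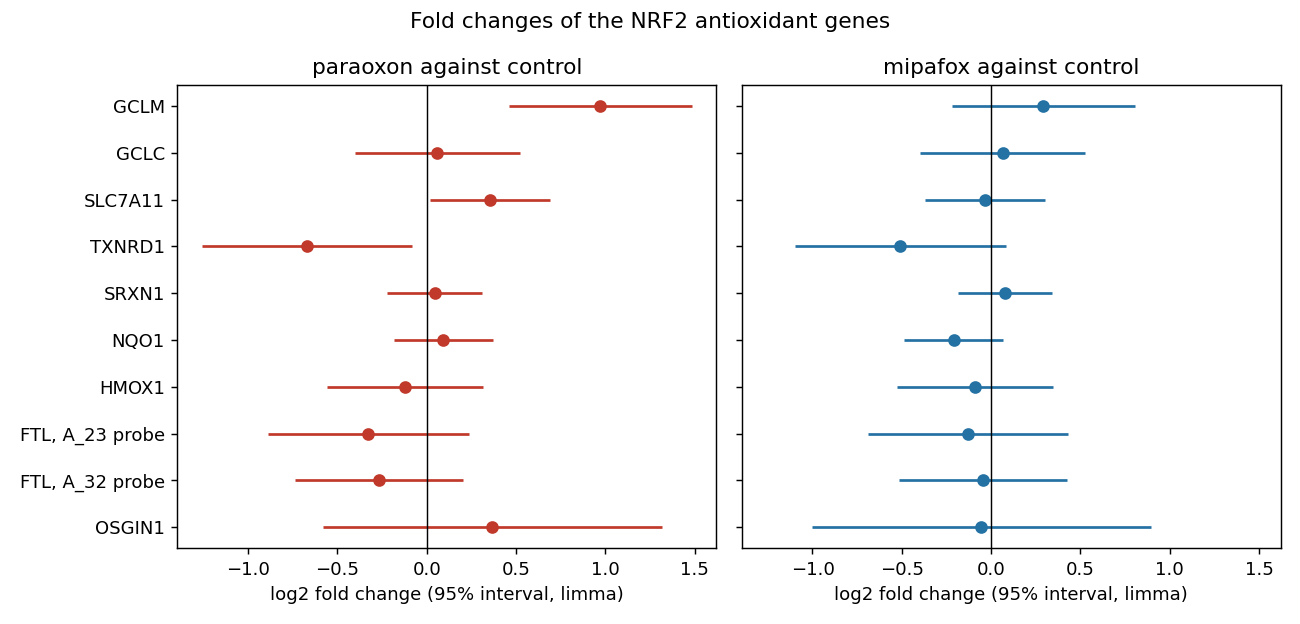
Log2 fold change of each probe against control with its 95% interval from limma, for paraoxon (left) and mipafox (right); the vertical line is no change. With paraoxon the intervals of GCLM, SLC7A11 and TXNRD1 do not include 0, before adjustment over all probes, and with mipafox every interval includes 0.

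The slide term moved the genes by unequal amounts. The median log2 fold change of all tested probes with paraoxon was 0.10 with slide as a block, against 0.01 without it, and that of the 10 probes was 0.20 against 0.05. GCLM and TXNRD1 moved towards 0, GCLC, HMOX1 and OSGIN1 moved up, and SLC7A11, SRXN1, NQO1 and FTL stayed within 0.12 of their values. The standard errors grew as well, since the difference between the slides then rests on the mipafox arrays, of which slide 1 holds 1. Of the 10 probes, 1, that of GCLC, had an unadjusted p under 0.05 in this fit and was higher, against 4.16% of all tested probes.

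**Figure D3:**
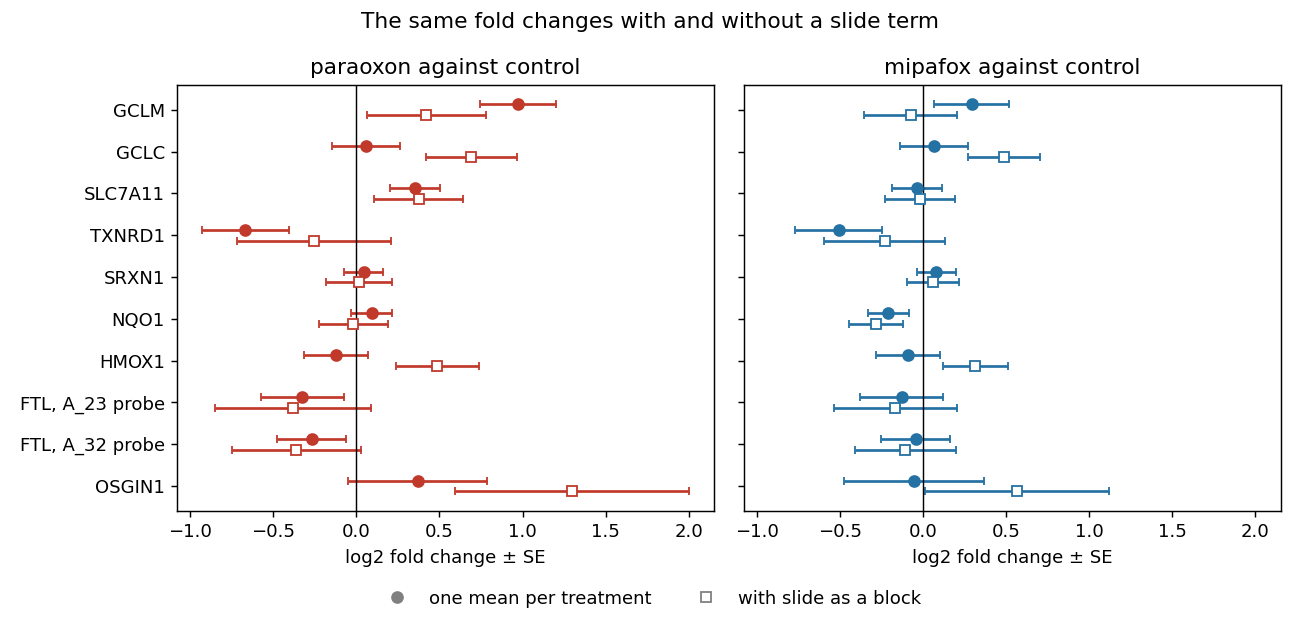
Log2 fold change with its SE for each probe, from the fit with one mean per treatment (filled circles) and from the fit with slide as a block (open squares). For paraoxon, GCLM goes from 0.97 to 0.42 and TXNRD1 from -0.67 to -0.26, SLC7A11 stays near 0.35, and HMOX1 crosses from -0.12 to 0.49.

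Paraoxon and mipafox were also compared directly, at their different doses, over the 10 probes. No probe passed the test (0.00% of all tested probes did), and at an unadjusted p under 0.05 GCLM, SLC7A11 and NQO1 were higher with paraoxon (3 of 10, against 2.87% of all tested probes). The log2 differences were 0.68 (SE 0.23) for GCLM, 0.39 (SE 0.15) for SLC7A11 and 0.30 (SE 0.12) for NQO1, each with a limma adjusted p of 0.998. Within slide 2, where both compounds can be compared without a change of slide, they were 0.50, 0.40 and 0.26, and the paraoxon arrays lay above mipafox B and C (3 of 10 probes, against 11.8% of all probes compared). The limma adjusted p within the slide was 0.950 for each. The count of 3 probes at an unadjusted p under 0.05 depended on the fit. It was 2 of 10 under quantile normalization, normexp and the authors' values, 1 with slide as a block and 0 within slide 2. Under normexp the NQO1 difference was -0.03, of the opposite sign.

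The members did not vary as 1 block over the 9 arrays. As a description over arrays that share treatments and slides, the signals of GCLM and GCLC, subunits of the same enzyme, had a correlation of -0.00, and those of GCLM and TXNRD1 had -0.38. GCLC, HMOX1 and OSGIN1 varied together, with correlations of 0.62 to 0.77, and shared a low value on mipafox C and a high value on mipafox A. GCLM, SLC7A11 and NQO1 had correlations of 0.51 to 0.55 with each other. The probes of FTL followed each other at 0.98 and ran against OSGIN1 at -0.74 to -0.75, a relation that includes paraoxon C, low for one and high for the other. The mean profile of the members, each centred on its own mean, was most like that of SNHG9 (r = 0.979), ALDH3B1 (0.975), ABCD3 (0.974), CABP4 (0.967) and PRAMEF5 (0.967) among the other named probes, over 9 arrays.

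The genes that control NRF2 were read from a list of 14, of which 13 had a tested probe (16 probes). The only probe of NFE2L2 itself was not well above background on any of the 9 arrays, so no change in its transcript could be measured. KEAP1, its repressor (A_23_P119141), read 1.39, 1.39 and 1.49 on the control arrays, 1.38, 1.53 and 1.13 with paraoxon and 1.42, 1.44 and 1.72 with mipafox, as log2 signal. The groups overlapped, with log2 fold changes of -0.08 and 0.11 (limma adjusted p = 0.890 and 0.959). No regulator passed the test in either direction with either compound. With paraoxon 7 probes were higher and 9 lower, and only GSK3B, a kinase that promotes NRF2 degradation, had an unadjusted p under 0.05, with a log2 fold change of -0.35 (SE 0.14, limma adjusted p = 0.308) and of -0.55 with slide as a block. This was 1 of 16 probes, against 6.02% of all tested probes in the lower direction. With mipafox 7 were higher and 9 lower, with no unadjusted p under 0.05.

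Of 29 further NRF2 target genes, including the pentose phosphate enzymes that supply NADPH, the aldo-keto reductases and glutathione transferases, 26 had a tested probe (33 probes). None passed the test with either compound, and none had an unadjusted p under 0.05. With paraoxon 12 probes were higher and 21 lower, with a median of -0.06 and values between -0.44 and 0.32. The slide-block fit gave a paraoxon median of 0.08 with 14 of the 33 lower, so its sign differed as well. With mipafox 17 were higher and 16 lower, with a median of 0.01. In the fit without the slide term, the log2 fold change of GCLM with paraoxon was farther from 0 than that of any of these 33 probes or of the other members. In the slide-block fit, OSGIN1, GCLC and HMOX1 were farther from 0 than GCLM.

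Oxidant defence genes outside this set, such as the superoxide dismutases, peroxiredoxins and glutathione peroxidases, were tested by 21 probes of 18 genes. With paraoxon 20 of the 21 were lower and 1 higher, with a median of -0.18 and values between -0.80 and 0.10, and none passed the test. The list had a median difference from the controls of -0.16, -0.21 and -0.14 on the paraoxon arrays and 0.10, -0.07 and -0.21 on the mipafox arrays. With slide as a block the paraoxon median was 0.04 and 10 of the 21 were lower, so the sign of this median differed between the fits. GPX3, the secreted glutathione peroxidase, was not the lowest of the list but had an unadjusted p under 0.05. Its log2 fold change was -0.61 (SE 0.22, unadjusted p 0.0194, limma adjusted p = 0.261) at probe A_33_P3369371. That probe read -4.14, -4.27 and -4.23 on the control arrays and -4.51, -4.64 and -5.33 with paraoxon. The other GPX3 probe had -0.27 (SE 0.15), and both values come from the fit without the slide term. In the lower direction 1 of the 21 probes had an unadjusted p under 0.05 with paraoxon, against 6.02% of all tested probes. With mipafox 18 of the 21 probes were lower and 3 higher, with no unadjusted p under 0.05 and a median of -0.08. In the slide-block fit the mipafox median was 0.10 and 7 of the 21 were lower, again of the opposite sign.

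In a bulk sample a lower signal cannot be separated into fewer cells with the transcript and less transcript per cell, and this holds for every value above.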

How the data were processed

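Total RNA was measured on 9 one-colour arrays. The authors extracted intensity values with Agilent Feature Extraction 10.5.1.1 (per the labels), and the deposited scanner files hold the processed signal, a background-subtracted intensity on a linear scale. The authors also deposited a table of log2 values; the background correction and normalization behind it are not stated in the sources used here beyond the packages named, and it served as an alternative. Here log2 of the processed signal was taken, and control spots were left out. Spots of a probe were averaged without outlier spots. Each array's 75th percentile over all non-control spots, outliers included, was subtracted. A probe was tested where every array of 1 treatment had at least 0.5 of its spots well above background and each treatment had 2 or more values. The model, fitted to all 9 arrays with limma 3.58.1 (R 4.3.3), had a mean for each treatment. Slides were read from the headers of the scanner files. Precision is limited by the number of arrays. The script was tested on simulated data.

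Samples were grouped by their titles. The members, the gene lists and the rule for named genes (all probes of the 9 members, NFE2L2 and KEAP1, list probes with an unadjusted p under 0.05, and the 5 most similar profiles) were chosen with earlier results of these data known. For each comparison 12 kinds of alternative were listed, among them quantile normalization, normexp with an offset of 50, filters, slide or replicate letter as a block, array weights and leaving out each array. Probe coordinates are those of the files (hg19), and exons or UTRs were not assigned. Promoters come from RefSeq on GRCh38.p14. Figures were drawn with matplotlib 3.10.9.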

Additional observations from a re-analysis of the deposited data

How the results depend on the processing

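No member passed the test in any comparison, and this held under every alternative except array weights. The fit with these weights called 1 member, GCLM, with paraoxon (log2 fold change 1.02), and 2.3% of all tested probes. Leaving out each array gave 0 members each time. At an unadjusted p under 0.05 with a log2 fold change beyond 1, 0 members passed in the fit reported. The paraoxon value of GCLM, 0.97 there, lay beyond 1 in the authors' values (1.06) and under normexp (1.03), and ranged from 0.86 to 1.05 with an array left out. Among all tested probes the counts called for paraoxon were 0 in the fit reported, 276 with only those 2 treatments, 671 with array weights, 1 in the fit with the slide term, and 0 to 276 with an array left out. For mipafox they were 0, 0, 800, 6 and 0 to 76.

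With paraoxon, signs turned for GCLC under normexp (-0.039) and array weights (-0.055), HMOX1 with slide as a block (0.49), NQO1 in the authors' values (-0.0086) and with slide as a block (-0.019), and SRXN1 under normexp (-0.012). With mipafox they turned with slide as a block and, equally, within slide 1 for GCLM (-0.075), HMOX1 (0.31) and OSGIN1 (0.56); under normexp for GCLC (-0.0072), NQO1 (0.057), SLC7A11 (0.020) and OSGIN1 (0.087); in the authors' values for SLC7A11 (0.063), OSGIN1 (0.029) and FTL (0.037); and with array weights for OSGIN1 (0.29). With an array left out, paraoxon values ranged from -0.00028 to 0.12 for GCLC and from -0.031 to 0.60 for OSGIN1. Mipafox values ranged from -0.15 to 0.28 for GCLC, -0.29 to 0.086 for HMOX1, -0.084 to 0.0077 for SLC7A11, -0.37 to 0.37 for OSGIN1 and -0.074 to 0.0024 for FTL (A_32_P155247). None of these values passed the test, and the cause was not tested.

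The letters A, B and C did not pair the samples: same-letter correlations of deviations from the treatment means ran from -0.60 to 0.57. With the letter as a replicate block, 0 members were called in each comparison, and the adjusted p of GCLM with paraoxon was 0.163 (limma). NQO1 and OSGIN1 had low mean processed signals, 28.1 and 73.3.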
